A study of Mus musculus with 8 samples.

Results

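The IFIT family of mouse neutrophils was followed as 4 genes, Ifit1, Ifit2, Ifit3 and Ifit3b, taken by symbol from a table of 10970 genes. Expression was counted as unique molecular identifiers (UMIs) in 1421 neutrophils picked by hand and sequenced by SCRB-seq, a plate method that reads the 3′ end of each polyadenylated RNA. The cells came from peripheral blood (PB) or bone marrow (BM) of 7- to 12-week-old male C57BL/6J mice that were injected intraperitoneally with PBS or with lipopolysaccharide (LPS, the outer membrane endotoxin of Gram-negative bacteria) at 0.5 mg/kg, with cells collected 4 h later. The PBS-primed samples carry the time label 0 h, and neutrophils were enriched by removing other cells. GEO's labels give 2 samples for each of the 4 groups, PBS-primed PB, LPS-primed PB, PBS-primed BM and LPS-primed BM, and these 8 samples (711 cells, taken here as 1 batch) carry every test. The other 710 cells (batch 6, on 9 plates) carry only a group in their names, so they are described by plate, with no SD. No source says that the 2 samples of a group came from separate animals, so each p-value measures only the spread between these samples.

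IFIT proteins are effectors that cells make in response to type I interferon. The protein of Ifit1 binds RNA whose cap lacks ribose methylation, as many viral RNAs do, and blocks its translation, while the proteins of Ifit2 and Ifit3 form complexes with other members and add to their antiviral action. LPS reaches the family through the receptor Tlr4 and its adaptor Ticam1, which switch on interferon beta, and secreted interferon then signals through Ifnar1 and Ifnar2 to transcription factors, Stat2 and Irf9 among them, that bind interferon-stimulated response elements (ISREs) in target promoters.

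The 4 genes lie in the same orientation within 99316 bases of chromosome 19 in the order Ifit2, Ifit3, Ifit3b, Ifit1. On NCBIM37 (mm9, the authors' build) with the GENCODE annotation of that build, Ifit2 spans chr19:34625184-34650909, Ifit3 chr19:34658021-34663221, Ifit3b (named I830012O16Rik in that annotation) chr19:34682421-34687891 and Ifit1 chr19:34715361-34724499, all on the plus strand. The related genes Ifit1bl1 and Ifit1bl2 lie between them on the minus strand, and no family gene overlaps another. A gap of 127 bases separates the starts of Ifit1bl2 and Ifit1.

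Matches to the ISRE core differed between members, and they are shown because 3 of the 4 genes carry a pair of ISRE cores and Ifit2 carries none in the same window. Both strands of the RefSeq promoters (GRCm38.p6, 250 bases before to 50 after each start) were searched for the ISRE core, which is GAAA, any 2 bases and GAAA again, and separately for the gamma-activated sequence TTCNNNGAA. Of 32851 promoters, 1131 (3.44%) held an ISRE core and 74 (0.225%) held 2 or more, while 2726 (8.3%) held a gamma-activated sequence. Ifit1, Ifit3 and Ifit3b each held 2 ISRE cores, all on the opposite strand, so that they read TTTC, any 2 bases and TTTC on the gene's own strand. Neither of the 2 RefSeq promoters of Ifit2 held an ISRE core, and 1 of them held a gamma-activated sequence. The windows below are from the same genes on mm9, plus strand, with the cores in capitals.
Ifit1, chr19:34715275-34715303: TTTCACTTTCcagtctcagTTTCAGTTTC
Ifit3, chr19:34657853-34657882: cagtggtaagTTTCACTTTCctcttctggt
Ifit3, chr19:34657887-34657916: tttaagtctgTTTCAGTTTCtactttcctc
Ifit3b, chr19:34682249-34682278: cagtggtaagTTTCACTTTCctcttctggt
Ifit3b, chr19:34682283-34682312: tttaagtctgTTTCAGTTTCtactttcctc
Ifit2, intron, chr19:34644673-34644702: tactttctggTTTCAATTTCtcttctttgg
The Ifit3 and Ifit3b windows are identical in letters, within an identical run of 169 bases shared by the 2 promoters. The Ifit2 window was looked for after its promoters gave no match. It is the core nearest to exon 2, starting 26 bases before that exon, and is 1 of 8 cores in the Ifit2 gene. A match is a description of letters and not a shown binding site.

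Ifit3 and Ifit3b are near copies. Their coding sequences share 1201 of 1212 bases (99.1%). In the last 500 bases of the annotated transcripts, where a 3′ method reads, 67 of the 451 possible runs of 50 bases from Ifit3 (14.9%) also occurred in Ifit3b transcripts, against 0 of 451 for each of the other 3 members. The authors kept only reads that mapped to 1 place, so reads lying wholly in shared sequence could not be counted. How the remaining reads split between Ifit3 and Ifit3b is uncertain. Their sum is therefore given beside the separate values.

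The labelled samples held 83 to 92 cells and 3240559 to 8361677 UMIs each, with a median of 32295 to 76133 UMIs per cell. The enrichment was checked against markers. Summed neutrophil markers (12 genes, S100a8 and S100a9 among them) took 145703 to 154291 UMIs per 1000000 UMIs of the sample (CPM) in PBS-primed PB, 271850 to 299574 in LPS-primed PB and 339973 to 396978 in BM. For LPS in PB, 9 of these 12 were called higher and 0 lower in edgeR (below), where 3.47% of genes were called higher. Scaled by library size alone, 7 were higher and 2 lower. The 6 with the largest fold were Ltf, Camp, Ngp, Mmp8, Ly6g and Retnlg. Ltf went from 4.96 and 8.95 to 1409 and 2038 CPM, and Camp from 34.3 and 35.2 to 3480 and 3621 CPM. Ngp went from 61.3 and 142 to 8306 and 9305 CPM. The 3 not called in edgeR, Csf3r, Mmp9 and Cxcr2, were lower in CPM after LPS. Csf3r went from 6748 and 5743 to 2829 and 2505 CPM, and Mmp9 from 2434 and 2015 to 1044 and 1176 CPM. Cxcr2 went from 2886 and 2576 to 2159 and 1889 CPM. Whether the 2 blood groups held cells of like maturity was not tested. T and NK cell markers fell from 520 to 535 CPM in PBS-primed PB to 1.87 to 2.04 CPM in LPS-primed PB. Of these, Cd3d and Ms4a4b, 2 of 6 tested, were called lower in edgeR, where 0.472% of all genes were called lower. Hepatocyte markers were at 1571 to 2475 CPM and 884 to 921 CPM in these groups and at most 15.9 CPM in BM, and B cell markers were at 80.5 to 108 CPM and 0.68 to 0.78 CPM. Summed monocyte and macrophage markers were at 235 to 599 CPM in PBS-primed PB, 860 to 999 CPM in LPS-primed PB and 896 to 1052 CPM in BM. Of the 10 markers on that list 8 were in the table and 7 were tested. Ly6c2 was the 1 called higher, on the background of 3.47%. Ccr2, F13a1 and Ms4a6c were at 0 in both LPS-primed PB samples, Ccr2 and F13a1 also in the second PBS-primed PB sample. Csf1r was at 95 and 174 CPM, Adgre1 at 27.5 and 38.1 CPM, Fn1 at 2.19 and 1.36 CPM and C1qc at 0 and 6.8 CPM in LPS-primed PB. The ratio of ERCC spike-in RNA, which is higher where a cell gave less RNA, had medians of 0.634 to 0.664 in PBS-primed PB, 0.498 to 0.520 in LPS-primed PB and 0.416 to 0.483 in BM.

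LPS-primed PB neutrophils held by far the most IFIT RNA. In the first and second sample the 4 genes together took 0.545% and 0.591% of all UMIs in blood after LPS, 0.0382% and 0.02% in blood after PBS, 0.0062% and 0.0284% in marrow after LPS, and 0.0028% and 0.0155% in marrow after PBS. Every LPS-primed PB sample lay above every sample of the other groups. Since each UMI stands for the 3′ end of a molecule, levels of different genes are compared here in CPM without division by length.

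Ifit1, the cap-binding member, was the most abundant member in LPS-primed PB. After PBS its 2 blood samples held 126 and 123 CPM and its 2 marrow samples 6.45 and 69.4 CPM, and after LPS the blood samples held 2796 and 3158 CPM and the marrow samples 21.6 and 132 CPM. The blood samples of each treatment lay close together, and the marrow samples overlapped between treatments and, for 1 LPS-primed BM sample, reached the level of PBS-primed PB. On batch 6 plates Ifit1 was at 224 and 107 CPM in blood and 10.2 to 111 CPM in marrow (4 plates) after PBS, and at 2633 and 4093 CPM in blood and 124 CPM in marrow (1 plate) after LPS.

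Ifit3, which partners other members, was at 192 and 45.1 CPM in blood and 17.8 and 37.1 CPM in marrow after PBS, and at 1541 and 1427 CPM in blood and 15.8 and 95.6 CPM in marrow after LPS. Its copy Ifit3b was at 46.6 and 29.0 CPM in blood and 2.58 and 35.6 CPM in marrow after PBS, and at 626 and 669 CPM in blood and 22.4 and 32.2 CPM in marrow after LPS. For both genes the 2 LPS-primed PB samples stood apart. The other groups overlapped one another, except that both PBS-primed PB samples held more Ifit3 than both PBS-primed BM samples. In batch 6, LPS-primed PB plates held 1528 and 2053 CPM of Ifit3 and 611 and 838 CPM of Ifit3b, against at most 94.9 and 60.7 CPM on any other plate.

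Ifit2 was the rarest member in each of the 8 labelled samples. It was at 17.5 and 2.47 CPM (88 and 8 UMIs) in blood and 0.86 and 13.2 CPM in marrow after PBS, and at 486 and 655 CPM in blood and 2.32 and 25 CPM in marrow after LPS. Low counts outside LPS-primed PB left its resting level the least certain of the 4, and the LPS-primed PB plates of batch 6 held 543 and 447 CPM against at most 30.1 CPM on other plates.

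**Figure D1:**
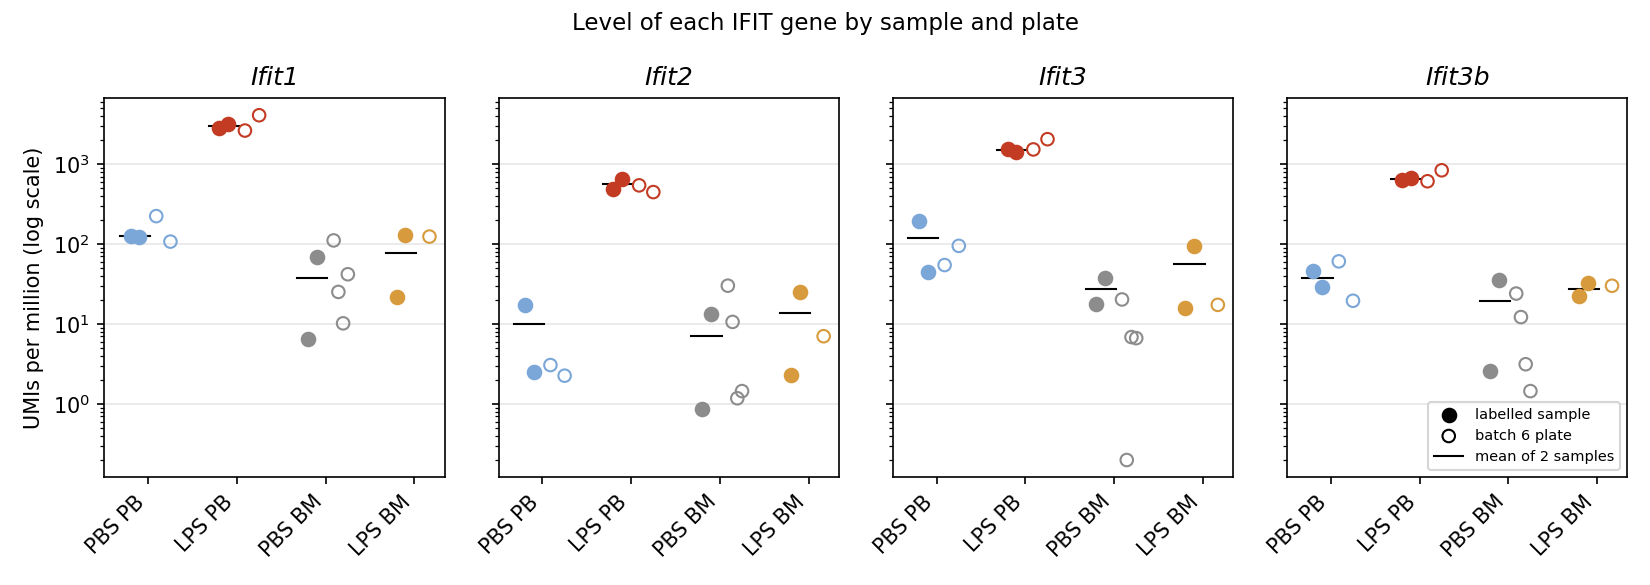
Level of each IFIT gene in CPM (log axis) in the 4 groups, with filled points for the 8 labelled samples, open points for batch 6 plates and a bar at the mean of the 2 samples. In every panel the 4 LPS-primed PB points lie above all others.

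The first comparison asked what LPS did to blood neutrophils. All 4 members rose in LPS-primed PB. In edgeR's quasi-likelihood test of the summed counts, with Benjamini-Hochberg adjustment over 8478 genes, the log2 fold change was 5.49 ± 1.05 (SE) for Ifit1 (adjusted p = 0.0141), 6.72 ± 1.44 for Ifit2 (adjusted p = 0.0278), 4.55 ± 0.88 for Ifit3 (adjusted p = 0.0143) and 5.01 ± 0.94 for Ifit3b (adjusted p = 0.0125). These 4 of 4 compare with a background of 3.47% of tested genes called higher (294 genes) and 0.472% called lower (40 genes). The members' median log2 fold change was 5.25, that of all genes tested was -0.11, and by fold the members ranked 220 to 432 of 8478. Ifit3 and Ifit3b summed into 1 gene rose by 4.67 ± 0.79 (adjusted p = 0.00648).

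The calls depended on the PBS-primed PB samples. With a sample left out, here and below, its group holds 1 sample, which is assumed to vary like the other groups. Without the first of them only Ifit3 passed in edgeR (adjusted p = 0.0449), and without the second no member passed (adjusted p 0.143 to 0.223), although the log2 fold changes over all such omissions stayed between 3.82 and 8.70. Scaling by library size alone in place of TMM normalization moved the median of all genes to -1.02 and the members to 4.57, 5.80, 3.64 and 4.09 in the order given, all 4 still called in edgeR, while the split over all genes turned from 294 higher and 40 lower to 140 higher and 268 lower. The other cell types' markers named above moved with the treatment. When the 9 cells with at least 1% of their UMIs from those lists were left out, the members rose by 5.41, 6.70, 4.47 and 4.89 (edgeR adjusted p 0.0204 to 0.0447).

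In marrow no such change was found. The log2 fold change of LPS-primed against PBS-primed BM was 0.82 ± 0.88 for Ifit1, 0.76 ± 1.16 for Ifit2, 0.84 ± 0.77 for Ifit3 and 0.31 ± 0.80 for Ifit3b (edgeR adjusted p 0.905 to 1). None of the 4 passed, on a background of 0.0236% of genes called higher and 0.0472% lower, with 684 of 8478 genes at an unadjusted p under 0.05. DESeq2 and limma-voom called 0 members too. The 2 marrow samples of a group differed by 1.44- to 15.3-fold for a member, so a change within that spread was not detectable. Without the second PBS-primed BM sample Ifit3b passed in edgeR (log2 fold change 3.24, adjusted p = 0.0447).

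Whether the LPS effect differed between blood and marrow was tested directly. The blood effect minus the marrow effect was 4.68 ± 1.30 for Ifit1, 5.96 ± 1.74 for Ifit2, 3.71 ± 1.11 for Ifit3 and 4.70 ± 1.18 for Ifit3b on the log2 scale. In edgeR none passed after adjustment (adjusted p 0.106 to 0.19, unadjusted p 0.00226 to 0.00671), where 1.45% of genes were called higher and 0.0472% lower. The 4 members summed into 1 gene gave 4.47 ± 1.09 (edgeR adjusted p = 0.0913). Without the first LPS-primed PB sample 3 members passed, and without the first PBS-primed BM or the second LPS-primed BM sample 2 passed. With the 9 batch 6 plates added as units and batch as a term, all 4 passed in edgeR (adjusted p 0.00074 to 0.0181), but plates of a group may share animals.

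After LPS, blood exceeded marrow for every member. LPS-primed PB against LPS-primed BM gave 5.85 ± 1.07 for Ifit1, 5.95 ± 1.39 for Ifit2, 5.30 ± 0.91 for Ifit3 and 5.15 ± 0.94 for Ifit3b (log2, edgeR adjusted p 0.00742 to 0.0398), 4 of 4 on a background of 3.27% higher and 0.46% lower. Without the first LPS-primed BM sample 1 member passed, and without the second LPS-primed BM sample or either PBS-primed PB sample 3 passed. Ifit2 missed, leaving 3, by library size alone (adjusted p = 0.0629 in edgeR) and without the cells holding other cell types' markers (adjusted p = 0.0583 in edgeR). At rest the tissues did not differ detectably, with PBS-primed PB against PBS-primed BM at 1.18 ± 0.89, -0.00 ± 1.20, 1.59 ± 0.78 and 0.45 ± 0.80 in the same order (edgeR adjusted p 0.307 to 1, background 1.18% higher and 1.43% lower). Without the second PBS-primed BM sample Ifit3b passed there (3.38, edgeR adjusted p = 0.0117). By level LPS-primed PB stood above the other 3 groups. Among those, PBS-primed PB lay above PBS-primed BM without overlap for Ifit1 and Ifit3, and LPS-primed BM overlapped both for every member, PBS-primed PB against LPS-primed BM being untested. The last 3 comparisons share samples with the first.

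**Figure D2:**
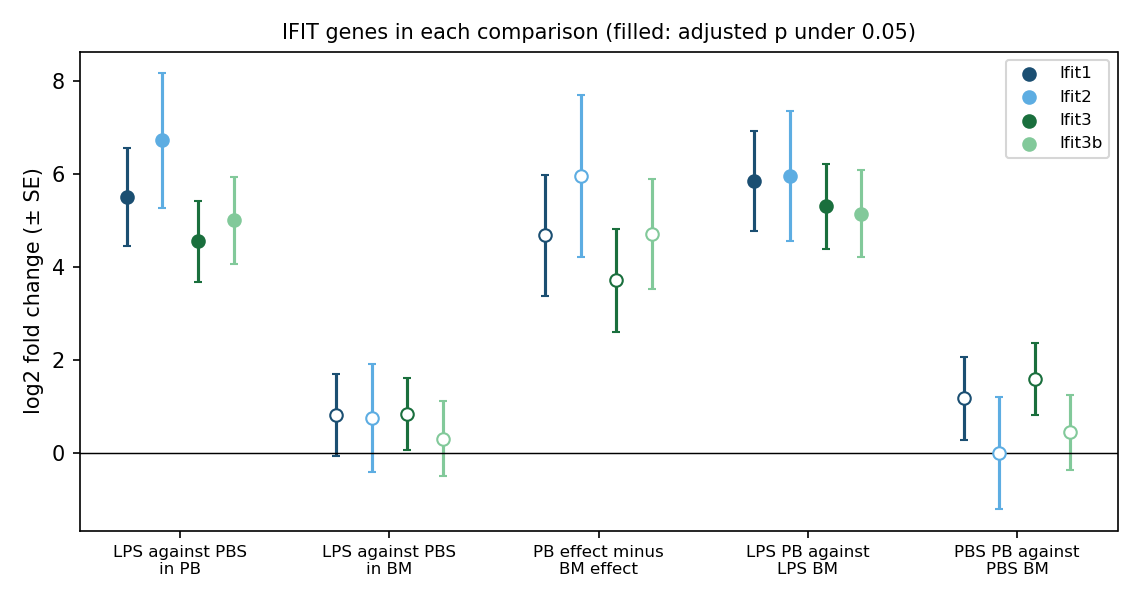
Log2 fold change of each IFIT gene (points, with bars of 1 SE) in the 5 comparisons from the same edgeR fit of 8 samples, filled where the adjusted p was under 0.05. All 4 points are filled for LPS against PBS in PB and for LPS-primed PB against LPS-primed BM, and open elsewhere.

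The members kept similar proportions in the 4 libraries of LPS-primed PB. Ifit1 made up 51.3% and 53.5% of family UMIs in the labelled samples and 49.5% and 55.1% on the batch 6 plates. Ifit3 made up 28.3%, 24.1%, 28.7% and 27.6%, Ifit3b 11.5%, 11.3%, 11.5% and 11.3%, and Ifit2 8.92%, 11.1%, 10.2% and 6.02%. Ifit3b therefore held 28.6% to 31.9% of the UMIs of the Ifit3 and Ifit3b pair there. In the other labelled samples that share ran from 12.7% to 58.6%, and on 1 PBS-primed BM plate of batch 6 it was 98.4% (2 Ifit3 and 123 Ifit3b UMIs). The share of Ifit1 likewise ran from 23.3% to 61.7% in the other labelled samples.

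Most LPS-primed PB cells, rather than a few, held the RNA. Cells were compared at equal depth by thinning each to 5000 UMIs at random, since none was shallower. In the first and second LPS-primed PB sample Ifit1 was found in 83.5% and 87.2% of thinned cells, Ifit3 in 79.1% and 76.7%, Ifit3b in 51.6% and 48.8% and Ifit2 in 42.9% and 44.2%. The shares in PBS-primed PB were 14.4% and 22.1%, 12.2% and 10.5%, 8.89% and 6.98%, and 2.22% and 1.16% in that order of genes. No member passed 10.9% of cells in a labelled marrow sample, while Ifit1 was in 15 of 88 thinned cells (17%) on the LPS-primed BM plate of batch 6. Ifit2 was found in 0 of 83 and 0 of 91 thinned cells of the first PBS-primed and LPS-primed BM sample, and at full depth in 4 (4.82%) and 3 (3.3%) of the same cells. At full depth Ifit1 was in 100% of the cells of both LPS-primed PB samples and in 66.7% and 55.8% of PBS-primed PB cells. Batch 6 LPS-primed PB cells held the genes more often, with Ifit1 in 97.8%, Ifit3 in 94.6%, Ifit3b in 69.4% and Ifit2 in 60.2% of 186 thinned cells.

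The level per cell was broad within LPS-primed PB. At full depth the summed family was at a median of 4026 and 3397 CPM per cell, with the lowest cell at 118 and 175 CPM, the lower quartile at 488 and 700 CPM and the 90th percentile at 11102 and 11164 CPM. No LPS-primed PB cell lacked a family UMI, against 10 of 90 and 23 of 86 PBS-primed PB cells and 22 to 57 cells in the marrow samples. Medians elsewhere were 49.4 and 37.9 CPM in PBS-primed PB and 0 to 16.3 CPM in marrow. Within the 2 LPS-primed PB samples the Spearman correlation of the thinned family count with the depth of the cell was 0.17 and 0.22 over their 91 and 86 cells.

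Cells with at least 5 of 5000 thinned UMIs from the family (0.1%) are called IFIT-high below, a limit chosen after seeing the data. They made up 62 of 91 (68.1%, exact Clopper-Pearson 95% interval 57.5 to 77.5%) and 61 of 86 (70.9%, 60.1 to 80.2%) LPS-primed PB cells, and 90 of 95 and 87 of 91 on the batch 6 plates. The intervals cover counting error only. PBS-primed PB held 11 of 90 and 4 of 86, and batch 6 PBS-primed PB plates 8 of 88 and 6 of 84. Marrow held 0 of 83 and 2 of 92 after PBS, and 2 of 91 and 5 of 92 after LPS. The class is a range of a continuous count, with 18 of 177 LPS-primed PB and 3 of 176 PBS-primed PB cells at 4 to 6 UMIs, and limits of 3 or 10 UMIs moved the gap between the treatments in PB from 61.1 percentage points to 72.4 or 56.6.

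**Figure D3:**
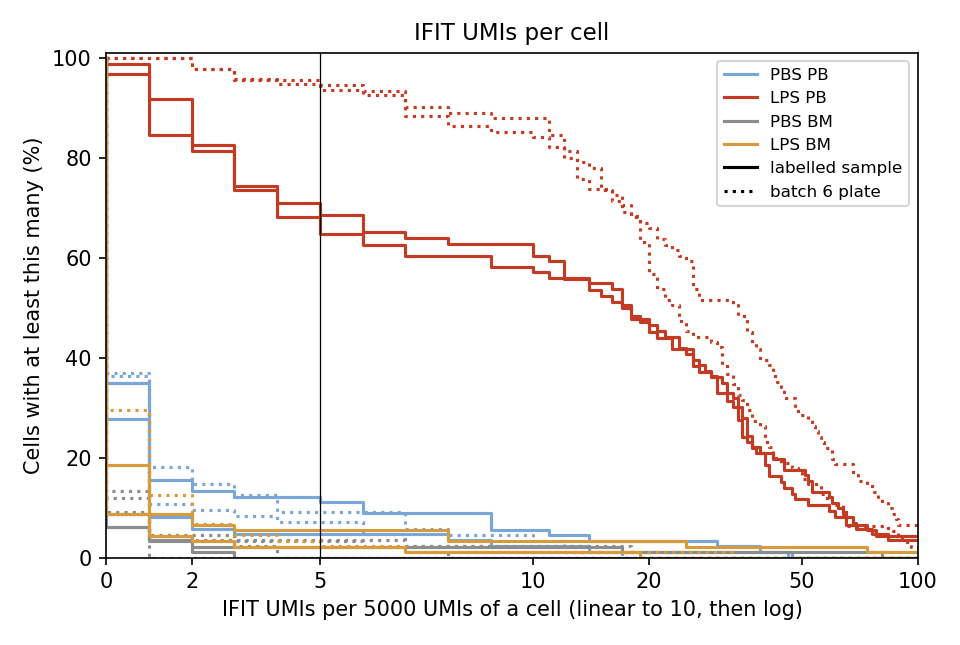
Percent of cells (vertical axis) with at least a given number of IFIT UMIs per 5000 UMIs of the cell (horizontal axis, linear to 10, then log), with 1 line per labelled sample (solid) or batch 6 plate (dotted). At 5 UMIs, the vertical line, the LPS-primed PB lines lie between 68.1% and 95.6% and those of all other groups at or below 12.2%.

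In the labelled samples outside LPS-primed PB the family level came largely from a pair of cells. The 2 cells with the most family UMIs held 49.0% and 63.3% of the family's UMIs in the PBS-primed PB samples and 61.9% to 83.7% in the marrow samples, against 11.3% and 19.2% in LPS-primed PB. On the batch 6 plates outside LPS-primed PB that share ran from 13.8% (a PBS-primed BM plate whose top cell held 8 family UMIs) to 70.8%, so this concentration did not hold on every plate. Leaving out those 2 cells of every sample, which removes cells by the genes under study, gave log2 fold changes in blood of 6.19, 8.08, 5.62 and 5.95 for Ifit1, Ifit2, Ifit3 and Ifit3b (edgeR adjusted p 0.000156 to 0.0102). That removal took a larger share of family UMIs from PBS-primed PB than from LPS-primed PB. Larger folds follow from it and are no separate support.

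These scattered cells differed in make-up from LPS-primed PB cells. Of the 47 IFIT-high cells outside LPS-primed PB in both batches, 27 (57.4%) drew at least 90% of their family UMIs from a single member, and 40 lacked at least 1 member altogether at full depth. Among the 300 IFIT-high LPS-primed PB cells those numbers were 17 (5.67%) and 22. Outside LPS-primed PB a single member dominated in 2 of 7 IFIT-high cells of labelled LPS-primed BM. It did so in 11 of 14 of batch 6 PBS-primed PB, with the other groups between. Of those 7 LPS-primed BM cells 3 held all 4 members. Among cells of like content, with 50 to 400 family UMIs, a single member dominated in 30 of 47 cells (63.8%) outside LPS-primed PB and in 13 of 137 (9.49%) in it. The dominating gene in the 30 cells was Ifit1 in 18, Ifit3b in 6, Ifit3 in 4 and Ifit2 in 2. These limits were chosen after the cells were seen, and no test was run.

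Single cells show the contrast. A batch 6 PBS-primed PB cell carried 347 Ifit3 UMIs and 0 of the other 3, and a cell of the second PBS-primed BM sample carried 266 Ifit1 UMIs and 0 of the others. Another PBS-primed BM cell carried 273 Ifit1, 272 Ifit3 and 275 Ifit3b UMIs with 0 Ifit2. A cell of the second LPS-primed BM sample instead resembled LPS-primed PB cells in carrying all 4, with 239 Ifit1, 130 Ifit2, 538 Ifit3 and 75 Ifit3b UMIs, or 982 family UMIs in all, and 415 UMIs of Rsad2, the antiviral enzyme viperin.

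Co-detection also set LPS-primed PB apart. It depends on the share of cells holding each single gene, so this split is not separate from those shares. At 5000 UMIs all 4 members were found together in 22 of 91 (24.2%, exact 95% interval 15.8 to 34.3%) and 17 of 86 (19.8%, 12 to 29.8%) LPS-primed PB cells, and in 79 of 186 (42.5%) in batch 6. They were found together in 0 of 90 and 0 of 86 PBS-primed PB cells and in 1 thinned cell of the labelled marrow samples, from the second LPS-primed BM sample. In batch 6 they were found together in 1 of 84 cells on a PBS-primed BM plate and in 1 of 88 on the LPS-primed BM plate. At full depth the numbers were 69 of 91 (75.8%) and 69 of 86 (80.2%) in LPS-primed PB and 3 of 90 and 3 of 86 in PBS-primed PB. At the other end, 3 of 91 and 1 of 86 thinned LPS-primed PB cells held none of the 4, against 65 of 90 and 56 of 86 PBS-primed PB cells.

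Within LPS-primed PB the thinned counts of the members were positively correlated from cell to cell. Over the 6 pairs of genes the Spearman correlation of thinned counts ran from 0.28 to 0.64 (median 0.453) over the 91 cells of the first sample, from 0.22 to 0.51 (median 0.323) over the 86 cells of the second and from 0.14 to 0.40 (median 0.258) over 186 batch 6 cells. The cells of a sample share its library, so no p is given. Ifit1 was found in 93.6% and 95.2% of thinned cells with Ifit3b and in 72.7% and 79.5% of cells without it. Ifit3b was found in 57.9% and 53.3% of cells with Ifit1 and in 3 of 15 and 2 of 11 cells without it. Other pairs varied in the second sample. There Ifit3b was found in 57.9% of cells with Ifit2 and 41.7% without it, and Ifit2 in 47% of cells with Ifit3 and 35% without it. No such gap was seen for Ifit2, found in 44% of cells with Ifit1 and 45.5% without it. The same held for Ifit3b, found in 48.5% of cells with Ifit3 and 50% without it.

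**Figure D4:**
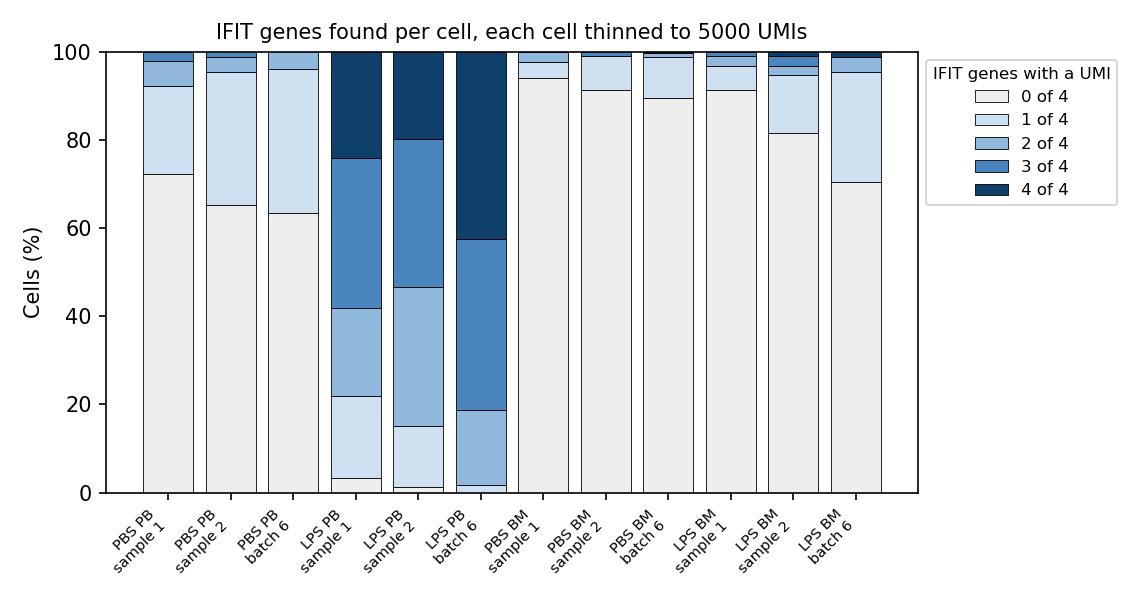
Percent of cells holding a UMI of 0, 1, 2, 3 or 4 of the IFIT genes, each cell thinned to 5000 UMIs, for each labelled sample and for the pooled batch 6 cells of each group. All 4 genes were found in 24.2%, 19.8% and 42.5% of LPS-primed PB cells and in at most 1 cell of each labelled sample of the other groups.

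The authors' deposited clusters divided the LPS-primed PB cells by IFIT level. These clusters were made from the most variable genes of the same cells, and whether IFIT genes were among those is not given in the sources used here, so the split is a description. Cluster 2 held 84 of the 177 labelled LPS-primed PB cells, 42 from each sample, with the family at 7409 and 7661 CPM. Cluster 1, which also held 174 of the 176 PBS-primed PB cells, took 48 and 35 LPS-primed PB cells at 2996 and 2291 CPM, and PBS-primed PB cells of that cluster were at 314 CPM. The remaining 10 LPS-primed PB cells, in cluster 0, were at 1310 CPM. LPS-primed PB cells thus differed from PBS-primed PB cells within cluster 1 as well.

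The cluster 2 cells were also the deeper ones. Labelled LPS-primed PB cells had a median of 76896 UMIs in cluster 2 and 42210 in cluster 1, and median ERCC ratios of 0.427 and 0.580. The share of IFIT-high cells, counted at equal depth, was 98.8% in cluster 2, 45.8% in cluster 1, and 2 of the 10 cells of cluster 0. Batch 6 differed from the labelled samples here, with 185 of 186 LPS-primed PB cells in cluster 2, at 5350 and 7431 CPM on the 2 plates. In marrow, LPS-primed cells of cluster 0 were at 120 CPM, and the 1 LPS-primed BM cell in cluster 2 was the cell with 982 family UMIs (22173 CPM).

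**Figure D5:**
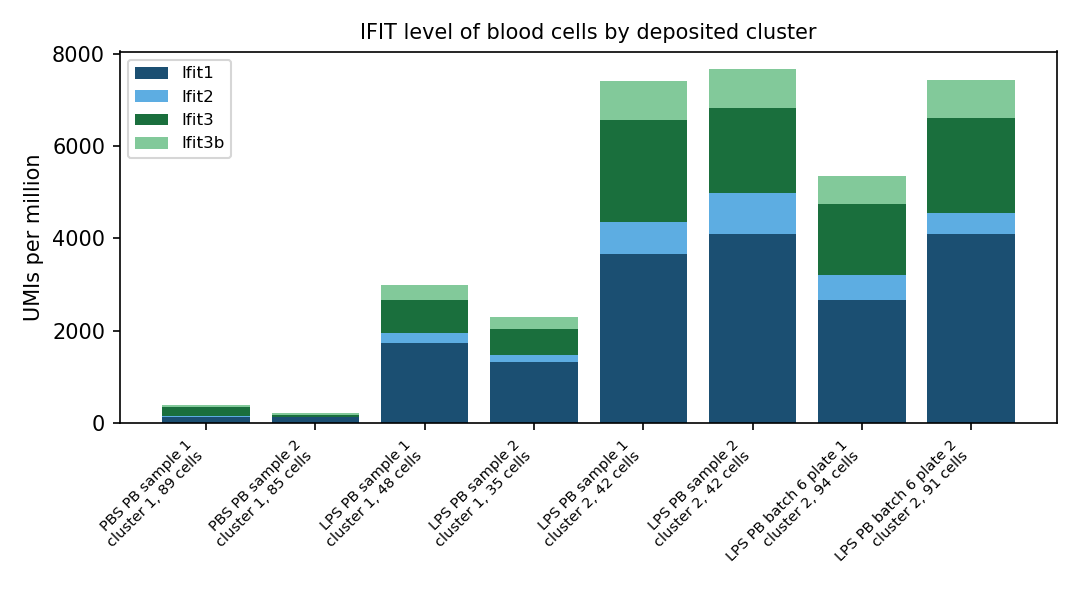
Level of the 4 IFIT genes (stacked, in CPM) in blood cells by sample or plate and by the authors' deposited cluster, for sets of at least 35 cells. LPS-primed PB cells of cluster 2 lie at 5350 to 7661 CPM, LPS-primed PB cells of cluster 1 at 2291 and 2996 CPM, and PBS-primed PB cells far below both.

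Summed over cells, the IFIT-high class held more of other interferon-stimulated RNAs, although outside LPS-primed PB a few cells carried most of it. In LPS-primed PB the 123 IFIT-high cells held 6166 CPM of Rsad2 and 844 CPM of Isg15, a ubiquitin-like modifier, against 855 and 148 CPM in the other 54. The 15 labelled IFIT-high PBS-primed PB cells held 2916 CPM of Rsad2 and 612 CPM of Isg15, against 197 and 30.2 CPM in the other 161. In that class 2 cells held 1210 of the 1559 Rsad2 UMIs, and 7 of the 15 held 0 Isg15 UMIs. In blood of batch 6 the gaps were smaller. The 177 IFIT-high LPS-primed PB cells there held 7185 CPM of Rsad2 and 534 CPM of Isg15, against 3038 and 256 CPM in the other 9. The 14 IFIT-high PBS-primed PB cells there held 1144 and 89.6 CPM, against 520 and 34.7 CPM in the other 158. The chemokine gene Cxcl10 differed from Rsad2 and Isg15 in the labelled PBS-primed PB samples. It was at 2595 CPM in IFIT-high and 148 CPM in the other LPS-primed PB cells, but at 16.8 and 15.4 CPM in the same classes of PBS-primed PB. In LPS-primed BM Cxcl10 was at 5.40 and 0.897 CPM, but the 2 samples held only 9 and 7 of its UMIs, too few to compare the classes. The 7 IFIT-high LPS-primed BM cells held 2596 CPM of Rsad2. Of those 7, 2 cells held 789 of the 962 Rsad2 UMIs, and 5 held 0 Isg15 UMIs. Summed neutrophil markers were at 136714 CPM in IFIT-high and 149915 CPM in the other PBS-primed PB cells.

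The wider interferon response rose in blood together with the family. Of 49 canonical interferon-stimulated genes outside the IFIT genes, 44 were tested, and 30 rose and 0 fell in LPS-primed PB (edgeR, median log2 fold change 3.69 against -0.11 over all genes), on the background of 3.47%. By library size alone 21 rose and 1, Slfn1, fell (-0.96, edgeR adjusted p = 0.0427). The 6 with the largest fold among those called were Cxcl10 (7.95 ± 0.63, adjusted p = 4.14e-05), the guanylate-binding proteins Gbp2 (6.43) and Gbp3 (5.61), the ubiquitin ligase Herc6 (6.31), the immunity-related GTPase Ifi47 (4.91) and Rsad2 (4.78 ± 0.50, adjusted p = 0.000262). By library size alone Gbp3 did not pass (4.67, edgeR adjusted p = 0.0905). Rsad2 went from 459 and 238 CPM to 5338 and 4889 CPM. In marrow 0 of the 44 were called, where only 0.0236% of all genes were called higher and 0.0472% lower. Their median log2 fold change in marrow was 0.63, against 0 over all genes. The effects differed between blood and marrow for 13 of 44, on the background of 1.45%, Cxcl10 (edgeR adjusted p = 0.000415), Rsad2 (0.00277) and Isg15 (0.002) among them.

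Members of the signalling route moved less evenly. Among 7 genes of the interferon receptor and its signalling chain, Stat2 (4.04 ± 0.54, edgeR adjusted p = 0.00137) and Irf9 (2.31 ± 0.50, 0.0278) rose in LPS-primed PB, on the same background of 3.47%, Irf9 not by library size alone (1.40, edgeR adjusted p = 0.141). The receptor chains Ifnar1 (0.27 ± 0.59, edgeR adjusted p = 0.897) and Ifnar2 (0.74 ± 0.39, 0.37) did not pass. Upstream, of 9 tested genes of the route from LPS to interferon, the LPS co-receptor Cd14 (4.51 ± 0.71, edgeR adjusted p = 0.00423) and the kinase Ikbke (6.20 ± 1.44, 0.0394) rose on that background, Ikbke not by library size alone (5.27, edgeR adjusted p = 0.0714), and Tlr4 itself did not pass (0.77 ± 0.77, edgeR adjusted p = 0.679). Ifnb1 and the other 13 type I interferon genes listed were not analysed here.

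Interferon-inducible transcription factors rose for 4 of 7 tested on the background of 3.47%, namely Sp140 (3.80), the amplifier of interferon gene transcription Irf7 (3.35 ± 0.41, edgeR adjusted p = 0.000784), Sp110 (3.07) and Sp100 (2.79). Of 9 negative regulators 4 rose on that background. These were the DNA exonuclease Trex1 (7.58 ± 0.69, edgeR adjusted p = 0.000106), Isg15 (4.41 ± 0.45, 0.000207), the Isg15 protease and receptor inhibitor Usp18 (3.96 ± 0.62, 0.00417) and the nucleotide hydrolase Samhd1 (1.32 ± 0.25, 0.0141). Samhd1 was at 1093 and 854 CPM in PBS-primed PB and 1331 and 1256 CPM in LPS-primed PB, a smaller gap than on the TMM scale of the test, and by library size alone it did not pass (0.41, edgeR adjusted p = 0.362). Some of the lists share genes, Isg15 counting both as interferon-stimulated and as a negative regulator. Their counts of calls are therefore not separate evidence. In marrow no gene of these lists was called, where only 0.0236% of all genes were called higher and 0.0472% lower.

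Genes around the family and its partners in translation gave no call. The neighbour Ifit1bl1 was at 15.9 and 0.31 CPM in PBS-primed PB and 87.8 and 155 CPM in LPS-primed PB (4.80 ± 1.44, edgeR adjusted p = 0.108). Ifit1bl2, whose start faces that of Ifit1, was at 17.1 and 106 CPM and at 224 and 226 CPM (2.80 ± 0.81, edgeR adjusted p = 0.0961). For both the groups did not overlap. Lipa, a lysosomal lipase gene nearby, had a log2 fold change of 0.17 (edgeR adjusted p = 0.97), so 0 of 3 tested neighbours passed. Of 12 subunits of initiation factor eIF3, which IFIT proteins bind, none was called in edgeR (median log2 fold change -1.33), Eif3f fell by library size alone (-2.93, edgeR adjusted p = 0.0174), and their summed level was 562 to 788 CPM in PBS-primed PB and 125 to 168 CPM in LPS-primed PB. The 2 tested cap methylation enzymes did not pass either.

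Genes whose pattern was most like the family were ranked among 1839 genes with at least 50 CPM in LPS-primed PB. Over the 8 labelled samples the highest Pearson correlation with the mean log2(CPM + 1) of the 4 members was that of Daxx (0.994), Usp18 (0.990), Tuba8 (0.977), Sod2 (0.971) and Parp12 (0.97). Usp18 went from 67.8 and 48.8 CPM in PBS-primed PB to 469 and 496 CPM in LPS-primed PB, and Sod2 from 20.2 and 49.1 CPM to 1013 and 1133 CPM. The samples fall into LPS-primed PB and the rest, which any gene raised there shares, so these are descriptions.

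Across cells of the LPS-primed PB samples the ranking was different. The highest mean Spearman correlation of thinned counts with the family sum was that of Rsad2 (0.721 and 0.699 over the 91 and 86 cells), then Slfn4 (mean 0.63), Lcn2 (0.597), Isg20 (0.566) and Nfkbia (0.563), while the median of all candidates was -0.0217. Rsad2, Slfn4 and Isg20 are interferon-stimulated genes, Lcn2 encodes a granule protein that binds siderophores, and Nfkbia encodes the inhibitor of NF-kB.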

How the data were processed

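The authors trimmed reads with Cutadapt 1.15, aligned them to mm9 with STAR 2.6.0a, removed duplicates by UMI among uniquely mapped reads and counted genes with HTSeq 0.11.2. The deposited values are raw UMI counts per gene and cell, after the authors' cell filters on genes, UMIs and ERCC spike-ins, with a deposited ERCC fraction and cluster per cell. Clusters came from Seurat on consensus variable genes. How HTSeq treated strand is not given in the sources used here. From these, counts were summed per labelled sample. Genes with a UMI in at least 10 cells (9919) that passed filterByExpr (8478) were tested with edgeR 4.0.16 (R 4.3.3, TMM, quasi-likelihood, 4 group means, two-sided, threshold 0.05 after Benjamini-Hochberg adjustment). The SE is the log2 fold change divided by the square root of F. DESeq2 1.42.0 and limma-voom (limma 3.58.1) were alternatives, and the fit was tested on simulated data.

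CPM is a sample's UMIs of a gene per 1000000 of its UMIs and is not TMM-scaled. Thinning drew 5000 UMIs per cell at random (seed 11). Cell names shared between samples numbered 0. Within a group the 2 samples differed beyond counting noise (chi-square per degree of freedom 60.1 or more). The 4 members are always named. From each fixed list, those called in blood are named, up to 6 by fold, plus Ifnb1, Ifnar1, Ifnar2, Stat2, Irf9, Irf7, Usp18, Isg15, Rsad2 and Cxcl10. A further gene of that rule is not reported here. The 3 tested locus neighbours, Tlr4, Slfn1, Eif3f, Csf3r, Mmp9, Cxcr2, the monocyte markers and the example cells were named after their values were seen. The members and lists were chosen with earlier results of these data known. The other marker lists gave, in PBS-primed and LPS-primed PB, 314 to 423 and 73.9 to 142 CPM for platelet and erythroid cells and 55.2 to 57.7 and 122 to 214 CPM for plasmacytoid dendritic cells, a list that holds Bst2, itself interferon-stimulated. Each had 0 members called. Their part in the results was not tested.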

Additional observations from a re-analysis of the deposited data

How the results depend on the processing

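DESeq2 brought its own size factors with its test, and the alternatives with batch 6 added cells and a batch term and filtered genes anew, so these changed more than 1 choice. Summing Ifit3 with Ifit3b, summing the 4 members, the other limits for IFIT-high cells and the other scalings of the listed genes were added after seeing the data. In blood the 4 LPS calls held under 10 of the 11 alternatives that kept all samples, and limma-voom called 3 (Ifit2 at 7.14, adjusted p = 0.0561). Leaving out each labelled sample in turn gave 0 to 4 calls, with log2 fold changes of 5.32 to 5.59 for Ifit1, 5.90 to 8.70 for Ifit2, 3.82 to 5.89 for Ifit3 and 4.66 to 5.33 for Ifit3b.

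In marrow leaving out samples gave 0 to 1 calls and log2 fold changes of -1.03 to 3.42 for Ifit1, -1.82 to 3.82 for Ifit2, -1.0 to 1.60 for Ifit3 and -0.60 to 3.24 for Ifit3b. Ifit2 turned to -1.13 without the 2 cells with the most family UMIs and to -0.12 with plates as units. Leaving out those 2 cells selects on the family itself, so the calls of that fit given below are no separate support. For the difference of the LPS effects, 0 members were called in the fit reported, 1 with no low-count filter, 1 with thinned cells, 4 without the 2 top cells, 4 with batch 6 pooled sums, 4 with plates as units and 0 to 3 with a sample left out. LPS-primed PB against LPS-primed BM gave 1 to 4 calls with a sample left out. PBS-primed PB against PBS-primed BM gave 2 calls without the top cells (Ifit1 at 3.76 and Ifit3 at 3.21), 1 with plates as units and 0 to 1 with a sample left out. There Ifit2, at -0.00, took the other sign at 0.0089 in DESeq2, 0.50 in limma-voom, 0.53 by library size, 0.028 with DESeq2 size factors, 0.0096 with no filter, 2.99 with thinned cells, 0.016 without cells holding other cell types' markers, and -2.01 to 3.06 with a sample left out, and Ifit3b ran from -0.45 to 3.38. The cause was not tested. The gap in cells with all 4 members between LPS-primed and PBS-primed PB, 22 percentage points in thinned cells, was 74.6 unthinned, 53.8 at 2 or more UMIs, and 19.8 to 24.2 with a sample left out.

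Over all genes, the calls for LPS in blood (334) became 1057 in DESeq2, 816 with plates as units, 651 with batch 6 sums, and 159 and 146 without the first or second PBS-primed PB sample. For LPS in marrow the 6 calls became 196 in DESeq2 and 2 to 39 otherwise, for the difference of effects the 127 became 500 in DESeq2, 295 with plates as units and 64 by library size, for LPS-primed PB against LPS-primed BM the 316 became 951 in DESeq2 and 144 without the second LPS-primed BM sample, and at rest the 221 became 962 in DESeq2, 709 with plates as units and 108 without the second PBS-primed PB sample.

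With DESeq2's size factors the listed genes gave the same counts of calls in blood as TMM. No pairing by the replicate numbers of the labels was seen, since same-numbered samples of any 2 groups had deviations correlated at -0.027 to 0.005. Such values cannot settle whether same-numbered samples share an animal or a preparation. With the replicate number as a block, 374 genes and 4 members were called for LPS in blood, 1 member (Ifit1) for the difference of effects, and Ifit2 at rest was 1.01.

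The members' low counts outside LPS-primed PB, which in the labelled samples came largely from a pair of cells each, and 2 samples per group limit the precision of every comparison with those groups.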
